A study of Homo sapiens with 6 samples.

Results

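Retained-intron transcripts are annotated RNA products of a gene in which part or all of an intron stays in the mature sequence. The 5 count matrices held 46484 human transcript identifiers, and 42740 of them matched GENCODE release 44 once the version was dropped. Of these, 6424 transcripts of 3828 genes carried the biotype retained_intron, which was the only criterion for inclusion. They made up 13.8% of the human transcripts stored and 18.8% of the 34128 retained-intron transcripts in that annotation.

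Cells of the human line labelled JJN3 and the mouse line labelled 5TGMG1, both described as myeloma cell lines, were mixed, captured and read on nanopore instruments. The 10X Chromium libraries mixed the species 50:50, were labelled as 2000 cells each and had cDNA amplified with 30 or 35 PCR cycles. The Drop-seq libraries, made on the Nadia system at 20:80, were labelled as 1000 cells at 25 cycles and as 500 cells at 30 and at 35 cycles. The 25-cycle library was prepared with the LSK-109 kit and the other 4 with LSK-114, no library had a further treatment, and a sixth sample without a count matrix was not analysed here. Each group was 1 library, so no difference between groups could be tested, and all intervals are 95% intervals that cover counting error only, since copies made by PCR are not independent molecules.

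During splicing, the spliceosome removes introns between a GT at the start and an AG at the end, and an intron that escapes removal usually carries a stop codon into the reading frame. Transcripts of this kind are often held in the nucleus or broken down by nonsense-mediated decay, and regulated intron retention is well described for genes of splicing factors and ribosomal proteins. Both platforms capture RNA with a poly(T) primer, which pairs with a poly(A) tail and can also pair with a run of A inside a transcript.

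The deepest barcodes, up to the labelled cell number, were taken as cells, and a human cell had at least 90% of its counts on human transcripts. In order of cycle number this gave 251, 166 and 165 human cells in the Drop-seq libraries and 1006 and 911 in the 10X libraries, with 67144 to 199308 human counts per library. Another 26 to 208 cells per library were mixed, with neither species at 90%, and stayed out of the human cells, while doublets of 1 species could not be seen and stayed in. The matrices stored no value below 1 in Drop-seq at 25 cycles, below 3 in the other Drop-seq libraries and below 2 in 10X. The human cells did not carry the same marker genes on the platforms. In 10X all 10 plasma cell markers had counts, led by IGLL5, and all 10 T cell markers were at 0. In Drop-seq, 9 of 10 plasma cell markers were at 0 in each library, MZB1 being the exception, while 5 to 9 of 10 T cell markers had counts, led by CD3G. These levels go against the JJN3 label in Drop-seq, and platform, human line, smallest stored value and library preparation cannot be told apart. Libraries of a platform shared cells: 722 stored barcodes were human cells in both 10X libraries, 145 in Drop-seq at both 30 and 35 cycles, and 133 to 135 between the 25-cycle library and the others.

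Several abundant members kept a whole short intron with the usual splice site letters. The 8 introns below are shown because their transcripts led the counts of a library or of a gene list, or differed most between cycle numbers. Each was read from hg38 on the strand of the gene and lies between coding exons of the gene's canonical transcript. Capitals mark the first and last 2 bases and the first stop codon in frame with the coding exon before the intron.
RPL10 intron 6, chrX:154400627-154400701 (+): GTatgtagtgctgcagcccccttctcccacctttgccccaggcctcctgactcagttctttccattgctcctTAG
EEF1A1 intron 6, chr6:73518265-73518353 (-): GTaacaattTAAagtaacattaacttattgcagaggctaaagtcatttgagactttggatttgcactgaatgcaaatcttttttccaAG
RPS13 intron 1, chr11:17077478-17077618 (-): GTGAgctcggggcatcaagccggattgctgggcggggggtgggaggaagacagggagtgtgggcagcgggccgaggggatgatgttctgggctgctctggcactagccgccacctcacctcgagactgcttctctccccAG
EIF1 intron 2, chr17:41689942-41690087 (+): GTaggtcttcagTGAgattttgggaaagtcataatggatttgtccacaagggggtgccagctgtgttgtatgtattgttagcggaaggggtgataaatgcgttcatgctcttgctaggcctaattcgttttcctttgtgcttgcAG
RPL13A intron 3, chr19:49490298-49490474 (+): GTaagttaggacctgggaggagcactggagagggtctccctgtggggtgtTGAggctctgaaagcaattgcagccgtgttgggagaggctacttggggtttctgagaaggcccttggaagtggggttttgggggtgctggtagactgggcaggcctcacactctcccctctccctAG
RPL13 intron 3, chr16:89561369-89561577 (+): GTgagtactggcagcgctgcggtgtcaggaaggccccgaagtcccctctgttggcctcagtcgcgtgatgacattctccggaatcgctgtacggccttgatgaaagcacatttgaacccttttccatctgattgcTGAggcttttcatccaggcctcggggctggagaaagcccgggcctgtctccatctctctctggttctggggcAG
OAZ1 intron 3, chr19:2271531-2271781 (+): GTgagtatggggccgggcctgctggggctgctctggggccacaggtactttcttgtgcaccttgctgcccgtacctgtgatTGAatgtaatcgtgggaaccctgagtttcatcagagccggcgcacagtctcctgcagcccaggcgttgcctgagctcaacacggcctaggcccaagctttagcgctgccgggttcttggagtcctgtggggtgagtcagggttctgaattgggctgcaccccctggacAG
HSP90B1 intron 12, chr12:103942797-103943073 (+): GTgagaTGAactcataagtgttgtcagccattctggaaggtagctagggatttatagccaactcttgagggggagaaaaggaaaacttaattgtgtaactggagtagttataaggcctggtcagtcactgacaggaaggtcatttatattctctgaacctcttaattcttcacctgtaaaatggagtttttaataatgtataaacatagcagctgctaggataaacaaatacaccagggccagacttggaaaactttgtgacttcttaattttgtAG

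All 8 introns began with GT, ended with AG and held a stop codon in frame. In RPS13 the stop started at base 2 of the intron, in HSP90B1 at base 7 and in EEF1A1 at base 10. In RPL10 the only stop in frame was TAG at base 73, which ends at the splice site itself. Intron numbers and reading frames follow the annotation of the canonical transcript. For OAZ1 this annotation gives the member 2 kept introns with 252 bases in all, and the intron shown has 251 of them. Its number and frame therefore depend on a gap too short to be a spliced intron. Lengths ran from 75 bases in RPL10 to 277 bases in HSP90B1, and GC content from 31.5% in EEF1A1 to 66.7% in RPS13. Over all members detected, 3115 whole introns of canonical transcripts were kept, with a median length of 372 bases against 1556 for all introns of coding canonical transcripts. Their median GC content of 52.2% compared with 43.7%. Annotated members had a median of 288 bases, so the introns in detected members were longer than those in the annotation. Among 3006 distinct kept introns with coding exons on both sides, 2713 (90.3%) held a stop codon in frame, against 87.5% of 10029 such introns over all annotated members.

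Other members held mostly intron and ended in one. The last bases are shown for ARFGAP2, picked because all 20 bases after its end are A. This member lay just outside the 2-fold limit between the 10X libraries. The last 10 bases of the transcript are in lower case and the next 20 bases of the genome in capitals.
ARFGAP2 ENST00000526185, chr11:47174387-47174416 (-): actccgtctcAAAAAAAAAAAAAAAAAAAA

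The 20 A after the ARFGAP2 end were thus set by the choice. ENST00000475922 of LPIN1 and ENST00000490863 of CYB5RL also had 20 A, while the KTN1 and ADAM32 members had 4 and the BLOC1S6 member 14. At least 12 A among these 20 bases were found for 10.5% of detected members, 5.65% of annotated members and 2.56% of coding transcripts. A polyadenylation signal, taken as AATAAA or ATTAAA on the transcript strand in the last 50 bases, was in 36.2% of detected and 23.01% of annotated members.

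Retained-intron transcripts took 5.92% to 8.57% of human counts in human cells. In Drop-seq their share was 6.30% (95% CI 6.16 to 6.44) at 25 cycles, 5.92% (5.74 to 6.10) at 30 cycles and 6.20% (6.05 to 6.36) at 35 cycles. In 10X it was 8.57% (8.44 to 8.71) at 30 cycles and 6.73% (6.62 to 6.84) at 35 cycles. The 10X library with 30 cycles stood above the other 4. This order depended on the smallest values: when values below 3 were left out of every library, 10X lay below Drop-seq, with 4.52% and 3.14% at 30 and 35 cycles against 5.76% to 6.20%. At 30 cycles the ratio of 10X to Drop-seq was 1.45 (1.40 to 1.502) as deposited and 0.763 (0.726 to 0.803) with those values left out.

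**Figure D1:**
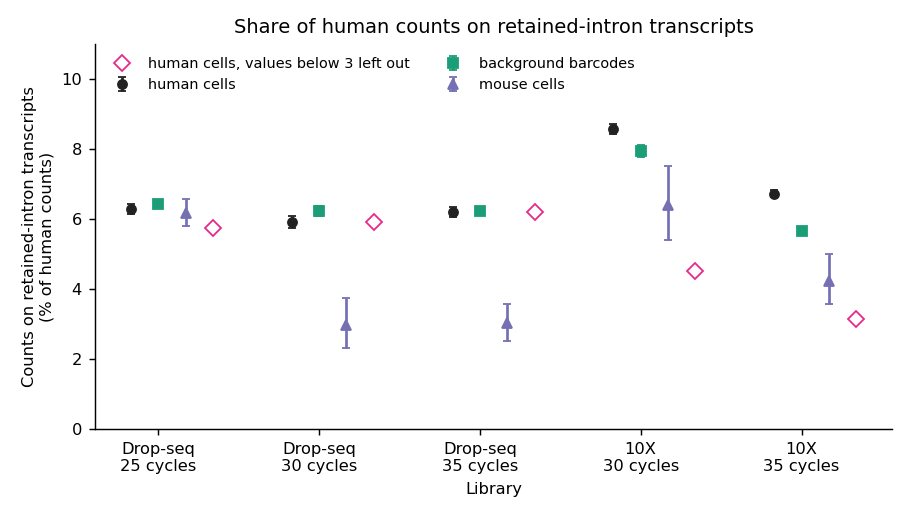
Share of human counts on retained-intron transcripts (y axis, %) in each library (x axis), for human cells, background barcodes and mouse cells with 95% Clopper-Pearson intervals, and for human cells with values below 3 left out. 10X at 30 cycles is highest with 8.57% as deposited and drops to 4.52% when the low values are left out.

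From 30 to 35 cycles the share in 10X human cells was lower, with a ratio of 0.785 (0.766 to 0.804), and the ratio stayed below 1 under all 12 alternatives run (0.695 to 0.831). In Drop-seq the ratio was 1.05 (1.01 to 1.09), and above 1 under the same 12 alternatives (1.02 to 1.07). Over the same 10X libraries the ratio was 1.02 for protein-coding transcripts and 0.895 for transcripts annotated as targets of nonsense-mediated decay. Immunoglobulin genes have no annotated retained-intron transcript, and IGLL5 had 7467 counts in 10X human cells at 30 cycles and 15219 at 35. Without immunoglobulin genes the shares were 9.31% and 7.73%.

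Background barcodes carried these transcripts at close to the level of cells. Their share of human counts was 6.44%, 6.23% and 6.23% for the Drop-seq libraries of 25, 30 and 35 cycles, which was 1.02, 1.05 and 1.004 times the share in human cells. In 10X it was 7.94% and 5.65%, or 0.926 (0.901 to 0.952) and 0.840 (0.818 to 0.862) times the share in human cells. Without immunoglobulin genes the 10X ratios were 0.963 and 0.941. Human counts in mouse cells held fewer of them: 2.97% and 3.02% for Drop-seq at 30 and 35 cycles, 6.40% and 4.25% for 10X, but 6.18% in Drop-seq at 25 cycles. For the first 4 values, 43.9%, 40.6%, 42.8% and 26.2% of the human counts were on identifiers outside the annotation, against 6.48% to 7.91% in human cells. Protein-coding shares were lower too, at 39.6%, 41.5%, 30.6% and 46.4% against 70.0% to 74.1% in human cells. The lower share in mouse cells was therefore not particular to members.

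Within single human cells the median share was 5.83%, 4.97% and 5.53% in the Drop-seq libraries of 25, 30 and 35 cycles, against 8.01% and 6.37% for 10X at 30 and 35 cycles. Cells differed widely, from 0% to 37.7% over all libraries. After each cell was thinned to 100 human counts the median was 5 counts per cell in each Drop-seq library, 8 in 10X at 30 cycles and 6 in 10X at 35 cycles, with 352 of 1006 cells left out as too shallow in 10X at 30 cycles. At least 1 such count was stored for 88.0% to 98.5% of human cells, at a median of 118 to 352 counts per cell, and for 86.7% to 99.1% at the thinned depth. Mouse cells, which should lack human RNA, had one in 4.47% to 7.57% of cells in 4 libraries and in 43.1% in Drop-seq at 25 cycles, at a median of 117 to 417 counts per cell. At the thinned depth this was 1.94% to 14.4%.

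Of the 6424 members, 3464 (53.9%) were stored in 1 library and 294 in all 5. The 10X libraries held 4641 and the Drop-seq libraries 3272. The 1489 found on both were 32.1% of the 10X members and 45.5% of the Drop-seq members. The same shares over all human transcripts are not given here, so whether members overlapped less than other transcripts was not tested. The 10 leading members of a library held 19.3% to 26.8% of its retained-intron counts in human cells. A count was often not unique to a member: among members with at least 10 counts, 7.0% to 9.0% in 10X and 13.4% to 31.3% in Drop-seq had the same count as another transcript in every barcode. In human cells, members with at least 10 counts and at least 3 entries that had the value of 1 other human transcript in at least 90% of their entries held 13.3% and 16.8% of retained-intron counts in 10X and 14.7% to 26.6% in Drop-seq.

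Summed over the human cells of all libraries, the member with the most counts was RPL10-210 (ENST00000467168, chrX:154398497-154400913), which keeps intron 6 of RPL10, a protein of the large ribosomal subunit. Human cells held 282, 116 and 178 counts in the Drop-seq libraries of 25, 30 and 35 cycles, and 298 and 524 in the 10X libraries of 30 and 35 cycles. The sum was 1398, against 1358 for ENST00000462494 of ACTB, and the order differed by library: the ACTB member led both 10X libraries, RPL13 led Drop-seq at 30 and 35 cycles, and RPL10-210 led at 25 cycles. RPL10-210 also led the sum per kilobase, with 1743 counts per kb of transcript. Retained-intron transcripts made up 28.4% to 34.1% of RPL10 counts in the 5 libraries, which is the split that the counting made. In 10X, RPL10-210 had the value of ENST00000424325, an identifier outside the annotation, in 114 of 127 and 191 of 216 entries. In Drop-seq at 25 cycles it had the value of ENST00000344746 of RPL10 in 53 of 65 entries. Most of its counts in these 3 libraries therefore cannot be told apart from those of another transcript. Every human cell that stored RPL10-210 also stored another RPL10 transcript.

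Transcripts of other housekeeping genes followed. ENST00000462494 of ACTB, cytoplasmic actin, had 83, 31 and 52 counts in Drop-seq and 612 and 580 in 10X, in the same order of libraries. These totals were nearly those of other ACTB transcripts: the coding transcript ENST00000646664 had 612 and 585 in 10X, and in 228 of 231 and 245 of 247 stored entries the member had the same value as ENST00000425660 in that barcode. In 10X its counts therefore cannot be told apart from those of these transcripts. ENST00000490569 of EEF1A1, the elongation factor that brings aminoacyl-tRNA to the ribosome, had 75, 83 and 115 counts and 254 and 551. ENST00000481928 of PTMA, the nuclear protein prothymosin alpha, had 93, 35 and 60 and 309 and 479. As CPM, counts scaled to the human counts of human cells, all 3 were higher in each 10X library than in any Drop-seq library. Many processed pseudogenes resemble EEF1A1, ACTB, PTMA and ribosomal protein genes, so their reads may be split between copies.

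The members of RPL13, RPL13A, RPS13 and EIF1 showed the opposite order, while RPL10-210 was highest as CPM in 10X at 35 cycles. ENST00000484610 of RPL13 had 225, 152 and 191 counts in Drop-seq and 22 and 24 in 10X. ENST00000479992 of RPL13A had 112, 58 and 92 in Drop-seq and none stored in 10X. ENST00000525828 of RPS13, a small-subunit protein, had 106, 82 and 96 against 16 and 6. The EIF1 member ENST00000482111, of an initiation factor that helps select the start codon, had 152, 72 and 86 against 30 and 29. All 4 were higher as CPM in each Drop-seq library than in either 10X library. The EIF1 member had the value of the canonical transcript ENST00000469257 in 29 of 31, 12 of 12 and 12 of 12 Drop-seq entries. In 10X this was 13 of 14 and 12 of 14, so most of its counts cannot be told apart from those of that transcript. The RPS13 member had the value of the canonical ENST00000525634 in 22 of 27, 8 of 13 and 12 of 17 Drop-seq entries. At 25 cycles the closest transcript matched 43 of 57 entries of the RPL13 member and 11 of 39 of the RPL13A member. Large-subunit genes gave 14.1% to 16.6% of retained-intron counts in Drop-seq and 3.05% to 5.03% in 10X, small-subunit genes 11.95% to 13.1% and 1.04% to 1.18%. These shares lay near those of the same genes in all human counts, which were 14.2% to 14.5% in Drop-seq and 4.66% and 5.24% in 10X for the large subunit and 10.9% to 11.5% and 1.85% and 1.84% for the small subunit. Within the genes, members held 5.60% to 7.20% of large-subunit counts over the 5 libraries, and of small-subunit counts 6.50% to 7.45% in Drop-seq and 5.47% and 3.80% in 10X. The lists were 52 and 35 genes, with detected members in 38 and 24.

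**Figure D2:**
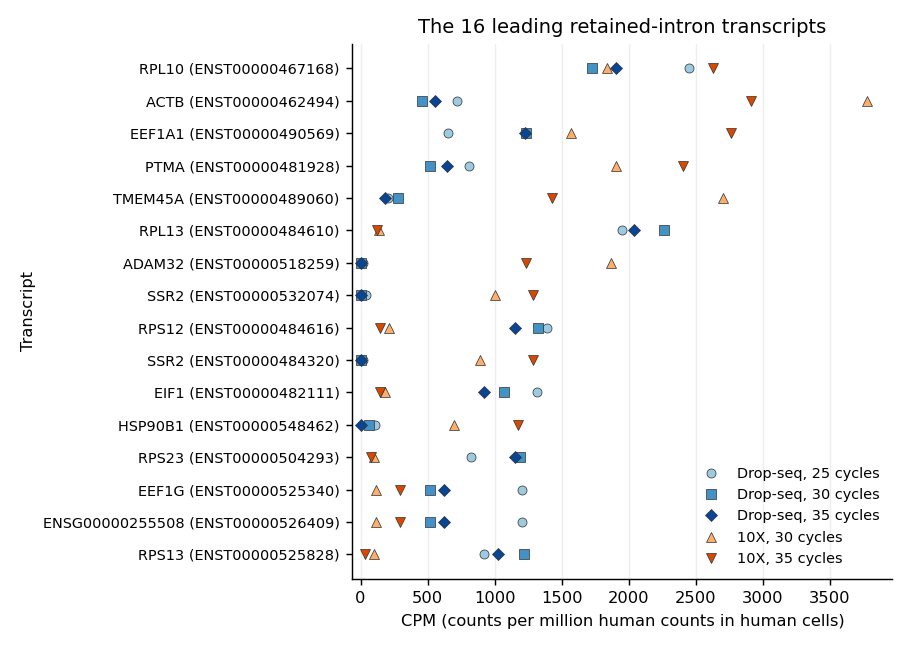
CPM in human cells (x axis) of the 16 retained-intron transcripts with the most counts (y axis), 1 symbol per library. ACTB, PTMA, TMEM45A and ADAM32 lie farther right in the 10X libraries, and RPL13, RPS12, EIF1, RPS23 and RPS13 farther right in Drop-seq.

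Genes of protein folding and secretion in the endoplasmic reticulum were the counterpart in 10X. They gave 6.53% and 9.31% of retained-intron counts in 10X and 0.12% to 0.48% in Drop-seq, with detected members in 23 of 41 genes, while the genes held 1.75% and 1.90% of all human counts in 10X and 0.53% to 0.63% in Drop-seq. The split that the counting made within these genes also differed, with 32.0% and 33.1% of their counts on retained-intron transcripts in 10X and 1.35% to 4.82% in Drop-seq. ENST00000532074 of SSR2, a subunit of the complex at the protein translocation channel, had 5, 0 and 0 counts in Drop-seq and 162 and 256 in 10X. Only 0.40% of its bases were in introns. In 10X it had the value of the canonical transcript ENST00000295702 in 74 of 77 and 101 of 113 entries, so most of these counts cannot be told apart from those of that transcript. ENST00000548462 of HSP90B1, the chaperone of the endoplasmic reticulum, had 12, 4 and 0 against 113 and 234, and at 30 cycles in 10X its counts equalled those of another transcript in every barcode. Of 8 members of this list tested between cycle numbers in 10X, 1 was at least 2-fold higher at 35 cycles and 3 lower, where 7.61% and 20.5% of all human transcripts tested were. Genes of actin and actin-binding proteins also split differently on the platforms, with 24.9% and 25.0% of counts on members in 10X and 4.93% to 7.82% in Drop-seq. In 10X, 612 of 825 and 580 of 827 of these member counts were on ENST00000462494 of ACTB, with the limit given above. The ACTG1 member ENST00000576917 had the value of ENST00000573283 in 44 of 44 and 67 of 70 entries.

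Translation factor genes gave 5.73% to 6.28% of retained-intron counts in Drop-seq and 2.996% and 5.23% in 10X, where the genes held 2.35% to 2.48% and 2.96% and 3.37% of all human counts, and heat shock chaperones 0.84% to 1.98% and 1.36% and 2.79%. Core spliceosome proteins, glycolytic enzymes, proteasome subunits, MHC class I genes and nuclear genes of oxidative phosphorylation each gave at most 1.41% in any library.

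Genes of splicing regulation, known for regulated retention, held a small part of retained-intron counts. For SR and HNRNP genes this part was above their part of all human counts in each library, except for SR genes in Drop-seq at 25 cycles. SR splicing factors gave 0.10% to 0.17% of retained-intron counts in Drop-seq and 0.48% and 0.79% in 10X, from 26 detected members of 11 of 14 genes, and 0.092% to 0.14% and 0.32% and 0.23% of all human counts. HNRNP genes gave 0.87% to 1.86% and 2.02% and 2.40% of retained-intron counts, and 0.80% to 0.84% and 0.79% and 0.87% of all human counts. Within the genes, members held 4.22% to 9.68% of SR factor counts in Drop-seq and 12.8% and 22.99% in 10X. The leading SR member, ENST00000634348 of SRSF4, was stored in 10X with 20 and 58 counts and not in Drop-seq human cells. The leading HNRNP member, ENST00000649899 of HNRNPU, had 9, 27 and 28 counts in Drop-seq. In 10X it had 74 of 281 and 95 of 322 counts on HNRNP members. Of its bases, 0% were in introns of the canonical transcript. In 10X it had the value of ENST00000444376 of HNRNPU in 25 of 33 and 39 of 45 entries. The leading member of 20 genes described as regulated by retention was ENST00000216019 of DDX17, an RNA helicase, with 21, 17 and 27 counts in Drop-seq and 14 and 12 in 10X.

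Of 444 genes with at least 200 counts in human cells, 225 had counts on retained-intron transcripts, at a median of 6.10% of the gene's counts, and in 10 genes these were at least 50% of the counts. Among them, LPIN1 had 81.0% of its counts on members, SSR2 63.7%, BLOC1S6 63.6%, RPS2 62.5%, HERPUD1 60.8% and GOLGA8B, of a family of near-identical copies, 56.5%. The SSR2 share carries the limit given above for its leading member. The RPS2 share has a similar limit. In Drop-seq its member ENST00000533161 had the value of the canonical transcript ENST00000343262 in 23 of 26, 6 of 7 and 14 of 15 entries. In 10X this was 5 of 5 and 11 of 12. For 3 of the 10 genes every count on an identifier that the annotation gives to the gene was on a member. ENST00000489060 of TMEM45A (chr3:100568924-100577444), a transmembrane protein, had 24, 19 and 17 counts in Drop-seq and 438 and 284 in 10X. ENST00000518259 of ADAM32, of a family of membrane proteins with metalloprotease domains, had 2, 0 and 0 and 302 and 246, and ENST00000473291 of HHLA1 had 13, 4 and 10 and 73 and 112. No human cell with the TMEM45A member stored another annotated transcript of the gene, in 193 and 121 cells of the 10X libraries, and the same held for ADAM32 in 134 and 110 cells. Identifiers outside the annotation could not be assigned to a gene. Among them, ENST00000633335 had the value of the ADAM32 member in 116 of 134 and 89 of 110 entries. KTN1 (ENST00000554831) and ARFGAP2 were also stored with no other transcript of their gene, in 43 and 17 and in 30 and 19 cells of 10X. In contrast, RPL10, EEF1A1 and SSR2 members were stored with another transcript of the gene in all of their 10X cells. The TMEM45A member had 87.8% of its bases in introns of the canonical transcript, the ADAM32 member 83.8% and the KTN1 member 95.2%, against 9.35% for RPL10-210.

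The platforms differed in how much of a member's sequence was intron of the canonical transcript. Members with at least 50% intron held 45.5% and 36.8% of retained-intron counts in the human cells of the 10X libraries (30 and 35 cycles) and 21.0%, 20.8% and 21.8% in those of Drop-seq (25, 30 and 35 cycles). They were 33.7% of annotated and 40.2% of detected members. Members that ended within 50 bases of an annotated coding end held 48.8% and 56.4% in 10X and 67.5%, 64.6% and 63.4% in Drop-seq. Members followed by at least 12 A in 20 bases held 12.4% and 10.2% in 10X and 3.90%, 5.69% and 5.83% in Drop-seq. Background barcodes gave the same order of platforms, with 46.6% and 37.4% against 23.9% to 26.4% for members of at least 50% intron. With values below 3 left out the order by intron content held in human cells, with 40.4% and 28.5% in 10X against 20.2% to 21.8% in Drop-seq. The order by coding ends did not, since 10X at 35 cycles then had 71.7% against 63.4% to 67.6% in Drop-seq.

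**Figure D3:**
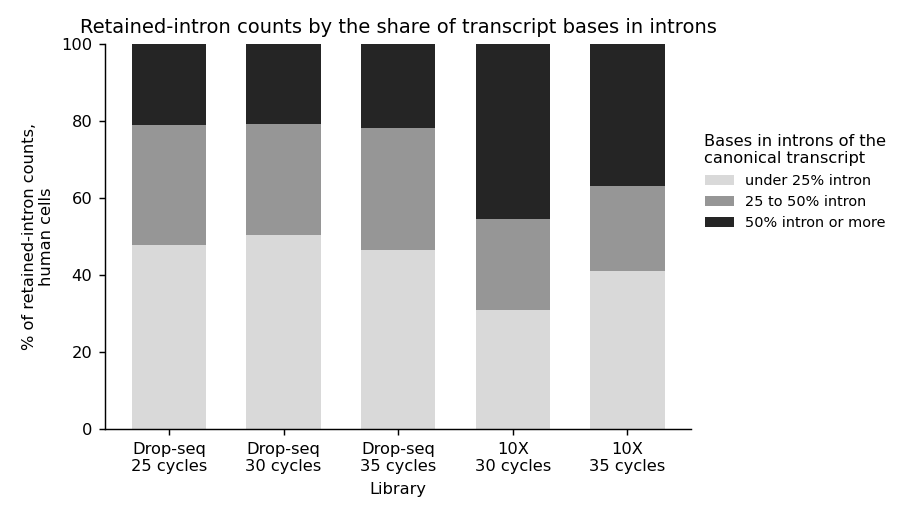
Retained-intron counts in human cells (y axis, % of such counts) in each library (x axis), split by the share of the transcript's bases in introns of the canonical transcript. The darkest part, at least 50% intron, is 45.5% in 10X at 30 cycles and 20.8% to 21.8% in Drop-seq.

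Single members were compared between 30 and 35 cycles as CPM, among human transcripts with at least 100 counts over both libraries. In 10X, 33 members passed this minimum. Of these, 3 were called higher at 35 cycles and 9 lower, where called means at least 2-fold apart, or 9.09% and 27.3%. Over all 381 human transcripts tested the shares called were 7.61% higher, 20.5% lower and 28.1% in either direction. The median log2 ratio was -0.56 for members and 0.06 for all human transcripts. This direction did not hold throughout: at a minimum of 200 counts the medians were 0.38 and 0.27, and with values below 3 left out 0.18 and 0.03. In Drop-seq 12 members passed, 0 were called, and log2 ratios lay between -0.25 and 0.59, as 0% of 243 human transcripts were called in either direction.

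The lowest ratio in 10X belonged to ENST00000474363 of TBL1XR1, part of a nuclear corepressor complex. It had 176 counts at 30 cycles and 42 at 35 cycles, a log2 ratio of -2.35 (-2.89 to -1.87), and no count in Drop-seq human cells. Other TBL1XR1 transcripts were also lower, with log2 ratios of -1.76 for ENST00000430069, -1.46 for ENST00000457928, -1.70 for ENST00000631253 and -1.88 for ENST00000636864. ENST00000566550 of HERPUD1, a gene of endoplasmic reticulum stress, had 96 and 38 counts (-1.63, -2.22 to -1.08), and the KTN1 member, of the membrane protein kinectin, 90 and 37 (-1.57, -2.18 to -1.01). Of the HERPUD1 counts as a whole, 69.2% (64.8 to 73.4) were on members at 30 cycles and 48.7% (42.9 to 54.5) at 35 cycles, and its coding transcript ENST00000439977 had a log2 ratio of -0.17. The HERPUD1 members ENST00000569569 and ENST00000564678 were also called lower (-1.50 and -1.21). At 30 cycles ENST00000566550 had the value of ENST00000564678 in 36 of 42 entries, and ENST00000569569 in 35 of 45. These members are therefore not separate observations. BLOC1S6 lay just inside the limit, with 90 and 54 counts (-1.03), and ARFGAP2 just outside, with 63 and 39 (-0.98).

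The highest ratio belonged to ENST00000640977 of HSP90B1, with 26 counts at 30 cycles and 89 at 35 cycles (1.46, 0.83 to 2.17). ENST00000461347 of NCL, the nucleolar protein nucleolin, had 45 and 151 (1.44, 0.96 to 1.96). ENST00000581150 of OAZ1, the antizyme that controls polyamine synthesis, had 37 and 112 (1.29, 0.75 to 1.88). Coding transcripts of these genes were higher too, with log2 ratios of 0.74 and 1.61 for HSP90B1, 0.62 for NCL and 0.98 and 1.14 for OAZ1. In 10X the HSP90B1 member had the value of ENST00000614327 of the same gene in 11 of 12 and 37 of 39 entries. The OAZ1 member had that of ENST00000582888 in 15 of 17 and 48 of 52. The NCL member had that of the canonical ENST00000322723 in 18 of 21 and 53 of 62. Most of these counts therefore cannot be told apart from those of another transcript of the gene. All 3 members had under 25% of their bases in introns. In that class of 15 members 3 were called higher and 1 lower, with a median log2 ratio of 0.51. The RPL10, ACTB and SSR2 members, with the limits given above, were also in this class. Among 13 members with at least 50% intron, 0 were called higher and 5 lower, with a median of -0.92. Those lower included ENST00000566550 and ENST00000569569, both of HERPUD1. The 5 members between these classes had 0 higher, 3 lower and the lowest median, -1.17, while over all human transcripts 7.61% were called higher and 20.5% lower. Transcript length moved with this split: the median log2 ratio over all human transcripts was -0.53 at 1500 bases or more and 0.36 below 1500, and its part in the result was not tested.

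**Figure D4:**
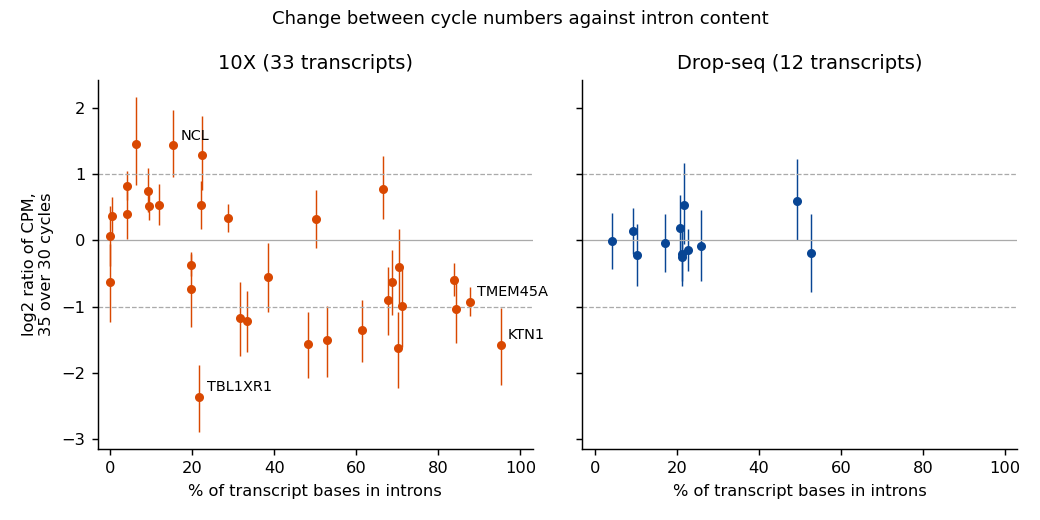
Log2 ratio of CPM, 35 over 30 cycles (y axis), against the share of transcript bases in introns (x axis) for members with at least 100 counts, with 95% intervals of counting error. Dashed lines mark 2-fold, and the 10X members above the upper line all have under 25% intron.

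Because the libraries of a platform shared barcodes, single stored entries could be followed. Over the 722 human barcodes shared by the 10X libraries, 5247 entries of retained-intron transcripts were stored at 30 cycles, and 634 of them (12.1%, 11.2 to 13.0) were stored for the same barcode and transcript at 35 cycles. For protein-coding transcripts this was 28.0% (27.5 to 28.4) of 39490. Entries of the smallest value, 2, were found again in 10.5% (9.63 to 11.4) of 4660 cases for members and in 19.1% (18.7 to 19.6) of 31451 for protein-coding transcripts. Entries above 2, which were not matched for size, were found again in 24.7% (21.3 to 28.4) of 587 cases for members and in 62.6% (61.5 to 63.7) of 8039 for protein-coding transcripts. Over 145 shared barcodes in Drop-seq, 79.7% (76.7 to 82.5) of 784 member entries and 85.2% (84.4 to 85.9) of 8973 protein-coding entries were found again. At the smallest value there, 3, it was 67.5% of 302 and 72.0% of 2722. The gap between members and protein-coding transcripts was wider in 10X than in Drop-seq, a difference that was not tested.

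In 10X the members with little intron were found again more often. Entries of members with under 25% intron recurred in 19.7% (17.8 to 21.8) of 1606 cases, and those with at least 50% intron in 8.47% (7.38 to 9.66) of 2385. In Drop-seq the values were 79.2% (74.7 to 83.2) of 375 and 81.4% (74.7 to 87.0) of 167. Stored barcodes had been shortened to 10 bases, so different cells may share one.

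**Figure D5:**
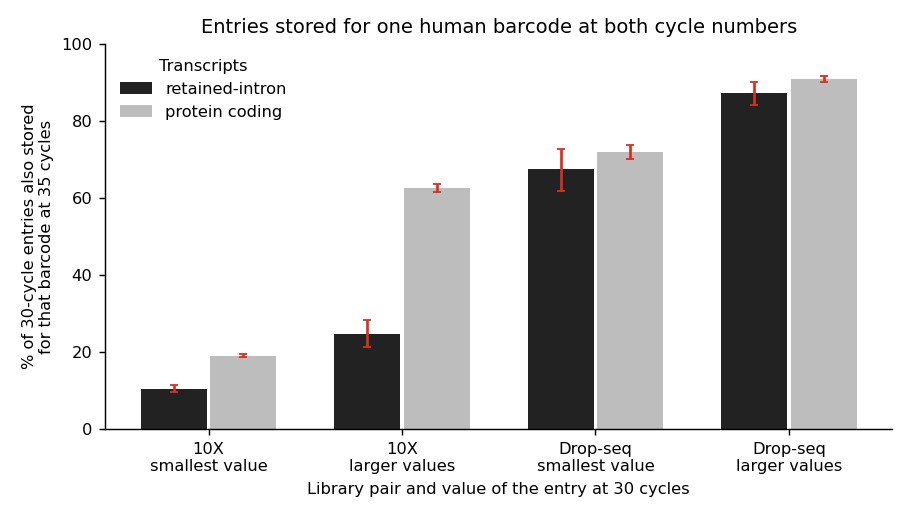
Share of entries stored at 30 cycles that were also stored for the same human barcode at 35 cycles (y axis, %), by platform and by whether the entry had the smallest stored value or a larger one (x axis), with 95% Clopper-Pearson intervals. Larger 10X entries recurred in 24.7% of cases for retained-intron and 62.6% for protein-coding transcripts, and those of the smallest value in 10.5% and 19.1%.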

How the data were processed

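The deposited matrices hold UMI counts per barcode and transcript, whole numbers that the authors made with minimap2 alignment to human hg38 and mouse mm10 transcripts and UMI deduplication, and did not scale by depth or length. Barcodes of 10 bases and smallest values of 1, 3 or 2 were stored, so low entries can be missing rather than 0. Which UMI counter made the Drop-seq files is not given in the sources used here.

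Human transcripts were matched to GENCODE 44 without version. Introns were those of the Ensembl canonical transcript, sequences came from hg38, and retained-intron and coding transcripts of a gene share sequence, so splits within genes are those of the authors' counting. Counts were summed over human cells (at least 90% human counts) and background barcodes, and thinned to 100 counts for values per cell. No doublet caller was run. Log2 ratios used a pseudocount of 0.5 counts. Shares have Clopper-Pearson and ratios exact conditional binomial intervals. No test was possible with 1 library per group. Members, gene lists and marker lists were chosen with earlier results of these data known. Named transcripts were the 5 with most counts per library, the 3 highest and lowest ratios per pair and those nearest to 2-fold, the leader of each gene list, the 3 leading background members and the 3 genes with the highest share, and some results are not reported here. LDHB, B2M, PSMC5, ATP5MC2 and U2AF1 led their lists with 17 to 50 counts over all human cells. Following single entries across barcodes and comparing their values with other transcripts was chosen after the data were seen. The pair comparison was tested on simulated data. Alternatives changed the cells, purity, smallest value, version match, denominator, members, thinning, minimum and scaling. The tools were pysam 0.24.0, scipy 1.17.1, pandas 2.3.3, matplotlib 3.10.9 and numpy 2.4.6 under Python 3.11.15.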

Additional observations from a re-analysis of the deposited data

Results flagged for a closer look

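The share of human counts on retained-intron transcripts moved in opposite directions on the platforms between 30 and 35 cycles. The ratio of the share at 35 cycles to that at 30 cycles was 0.785 in 10X human cells and 1.05 in Drop-seq human cells. Each value rests on 1 library per cycle number, so the difference between the platforms was not tested, and the human cells of the platforms also differed in marker genes and smallest stored value.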

How the results depend on the processing

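From 30 to 35 cycles the share of human counts kept its direction under the alternatives run, while its level and the counts of members moved. From 25 to 30 cycles in Drop-seq the ratio of the shares turned from 0.939 to 1.03 with values below 3 left out. No paired analysis was possible because each group is 1 library and no result comes from a test. With values below 3 left out, the share of human counts was 5.76% for Drop-seq at 25 cycles, 4.52% and 3.14% for 10X at 30 and 35 cycles, background over human cells was 0.954 and 0.667 in 10X, and thinned medians were 5 and 3 counts per 100. Listing the Drop-seq libraries and then the 10X libraries by cycle number, the share was 7.27%, 6.78%, 7.16%, 9.68% and 7.28% with the same identifier version, 6.81%, 6.40%, 6.74%, 9.19% and 7.20% over counts with a biotype, 5.47%, 5.13%, 5.43%, 6.98% and 5.11% without the 10 leading members, and 5.66%, 4.79%, 5.13%, 8.31% and 6.60% without members equal to another transcript. At 95% purity it was 6.74% in Drop-seq at 25 cycles. With the number of cells halved it was 6.21% for Drop-seq at 30 cycles, and 8.76% and 6.89% for 10X. Chosen after seeing the data, leaving out immunoglobulin genes gave 9.31% and 7.73% in 10X with background ratios of 0.963 and 0.941, and leaving out mitochondrial transcripts gave 6.46% (25 cycles) and 6.36% (35 cycles) for Drop-seq, and 9.60% and 7.75% for 10X. The planned background ratios without mitochondrial transcripts were 0.957 and 0.878 in 10X, and without the 10 leading members 0.954 at 30 cycles. Members with at least 10 counts in a library numbered 898, 262, 420, 357 and 344, and those stored in human cells 1068, 444 and 538 in Drop-seq and 1994 in 10X at 35 cycles. In 10X at a minimum of 50 counts, 7 of 72 members were called higher and 19 lower, against 71 and 157 of all 746 human transcripts. At 200 counts it was 0 and 1 of 12 against 18 and 30 of 176. With values below 3 left out it was 1 and 3 of 9 against 16 and 28 of 104. When scaled to all counts in cells, 16 of 37 were lower, against 118 of 427. In Drop-seq at 50 counts 1 of 32 members was higher, against 9 of 556. The median log2 ratio of 10X members turned to 0.38 at 200 counts and 0.18 with values below 3 left out. The cause of these moves was not tested. Depth limited the member comparison to 33 and 12 of 6424 members.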
